A study of Mus musculus with 8 samples.

Results

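Fetal hepatoblasts transcribe a set of genes that are shut down as the liver matures and that often come back on in liver tumours, and these are therefore called oncofetal. The 10 genes described here are Afp, Dlk1, Gpc3, H19, Meg3, Lin28b, Igf2bp1, Igf2bp2, Igf2bp3 and Hmga2. They are taken by symbol, from a list drawn up with earlier results of these data known, and are 10 of the 23467 genes kept from the deposited table. All 10 had a mean of at least 1 RPKM (reads per kilobase of gene, divided by the total reads of the library), so all 10 were tested. They fall into 4 roles. Afp encodes alpha-fetoprotein, the main plasma protein of fetal blood. Dlk1 and Gpc3 encode cell surface proteins of hepatoblasts. H19 and Meg3 are long noncoding RNAs made from the maternal copy of imprinted regions, next to Igf2 and to Dlk1. Lin28b, Hmga2 and the Igf2bp genes form a circuit in which LIN28B blocks the maturation of let-7 microRNAs, and let-7 in turn restrains Hmga2, the Igf2bp mRNAs and Lin28b itself.

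The libraries are of hepatoblasts from E14.5 fetal livers of mixed B6;129 mice, cultured on collagen (iHB), of the same kind of cells driven to hepatocytes with Oncostatin M at 12.5 ng/ml for 5 days by the labels (iHP), and of cells driven to biliary epithelial cells, or BECs, in Matrigel for 14 days (iBEC). Controls are labelled wild type, and the other genotype, L1L2_Alb, is labelled Lats1-/-;Lats2 f/fl;Alb-cre, which by the label is a loss of Lats1 in every cell and of Lats2 only in cells that expressed albumin. LATS1 and LATS2 are the kinases of the Hippo pathway that inactivate the coactivators YAP and TAZ. There was 1 control library in each of the 3 stages, 1 L1L2_Alb library of iHB, and 2 each of iHP and iBEC, 8 in all. The question put to these data was whether fetal genes persist or decline by stage and by genotype.

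The libraries held between 18436865 and 33229075 reads, recovered from the step size of short RNA genes. Lats1 stood at 5.38 to 11.2 RPKM in the 3 control libraries and at 7.12 to 22.7 RPKM in the 5 libraries labelled L1L2_Alb. Lats2 stood at 6.90 to 10.1 RPKM in the controls and at 10.9 to 27.6 RPKM in the libraries labelled L1L2_Alb. Lats2 RNA was above the control of its stage in every L1L2_Alb library. Lats1 RNA was too, except in L1L2_Alb iHP 2, at 7.12 RPKM against 11.2 RPKM in the control. A value per gene does not separate the deleted exons from the rest, and every direction below by genotype therefore rests on the label. The labelled end points were also not matched by all of their markers. Of 6 BEC markers tested, 2 had a positive fitted difference from iHB to iBEC. Only Spp1, which encodes osteopontin, passed the test as higher, by 15.9-fold (limma, adjusted p = 0.00193). Krt7, a duct keratin, fell by 4.37-fold (limma, adjusted p = 0.0108), while 5 of the 8 hepatocyte markers, led by Ahsg, rose. By genotype, Krt7 was 4.49-fold higher (limma, adjusted p = 0.00422) and Krt19, another duct keratin, 2.48-fold higher (limma, adjusted p = 0.0205) in the libraries labelled L1L2_Alb.

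5 microRNA hairpins with values in the table lie inside 4 of the genes, and their mature sequences are shown. Each entry ran with its host transcript over the 8 libraries (r of 0.972 to 0.999). Such entries can take reads from the host, so these correlations are not separate evidence, and the mature microRNAs were not measured. The sequences are from RefSeq (GRCm38.p6, which is not the build listed for the deposited table), run 5′ to 3′, and carry the seed, bases 2 to 8, in capitals. H19 holds miR-675, with the 5p arm at chr7:142577112-142577133 on the minus strand. Meg3 holds miR-770 and miR-1906, Gpc3 holds miR-717, and Igf2bp1 holds miR-3063.
miR-675-5p: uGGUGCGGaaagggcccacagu
miR-675-3p: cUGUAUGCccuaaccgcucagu
miR-770-5p: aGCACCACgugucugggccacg
miR-770-3p: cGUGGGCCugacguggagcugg
miR-1906: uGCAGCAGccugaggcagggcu
miR-717: cUCAGACAgagauaccuucucu
miR-3063-5p: uGGAGAUCagguuugcacacu
miR-3063-3p: uGAGGAAUccugaucucucgcc
These arms have 8 different seeds. The 9 let-7 family arms in RefSeq, of which 4 are given below, share 1 seed, GAGGUAG, also where the first base or the 3′ part differs.
let-7a-5p: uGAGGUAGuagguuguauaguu
let-7d-5p: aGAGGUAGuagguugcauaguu
let-7g-5p: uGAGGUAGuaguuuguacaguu
miR-98-5p: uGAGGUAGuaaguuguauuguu

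RefSeq promoter windows were held for 8 of the 10 genes, with 9 windows in all since Meg3 has 2. The 250 bases before each start were searched on both strands for GTTAAT (1 arm of the HNF1 site), CAAAGTCCA (HNF4), TGTTTAC (FOXA) and GGAATG (TEAD, the partner of YAP). Only Afp and Dlk1 held a match, shown in capitals. Afp held 1 GTTAAT, a word found in 6.43% of 32851 promoter windows of that length. Dlk1 held TGTTTAC 2 times, a word found in 3.17% of them. No member window held the HNF4 or TEAD word, which occurred in 0.384% and 12.6% of all windows. These are exact matches of letters, so sites spelled otherwise would be missed and are not marked. No binding was measured. The Afp window is chr5:90490464-90490713 and the Dlk1 window chr12:109452573-109452822, both on the plus strand of GRCm38.p6.
Afp: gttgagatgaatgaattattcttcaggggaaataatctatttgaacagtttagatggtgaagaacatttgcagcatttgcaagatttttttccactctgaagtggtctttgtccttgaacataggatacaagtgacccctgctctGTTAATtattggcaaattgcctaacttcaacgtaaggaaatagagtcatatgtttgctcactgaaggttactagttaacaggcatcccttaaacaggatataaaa
Dlk1: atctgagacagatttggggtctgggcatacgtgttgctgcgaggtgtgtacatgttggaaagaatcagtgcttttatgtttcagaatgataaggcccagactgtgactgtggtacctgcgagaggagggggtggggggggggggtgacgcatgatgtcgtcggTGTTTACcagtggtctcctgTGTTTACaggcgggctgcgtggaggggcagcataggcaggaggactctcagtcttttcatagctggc

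All 10 fetal genes were detected in all 8 libraries, at very different levels. Afp had the highest mean per length, 2578 RPKM, the 20th highest mean of the table, followed by H19 at 1050 RPKM and Gpc3 at 269 RPKM. The lowest was Lin28b at 1.05 RPKM, from 66 to 179 reads per library, the fewest of the 8 genes whose reads could be recovered. Reads of Dlk1 and Meg3 could not be recovered. H19 varied most between libraries, 17.8-fold from lowest to highest. Hmga2 varied least, 1.79-fold.

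**Figure D1:**
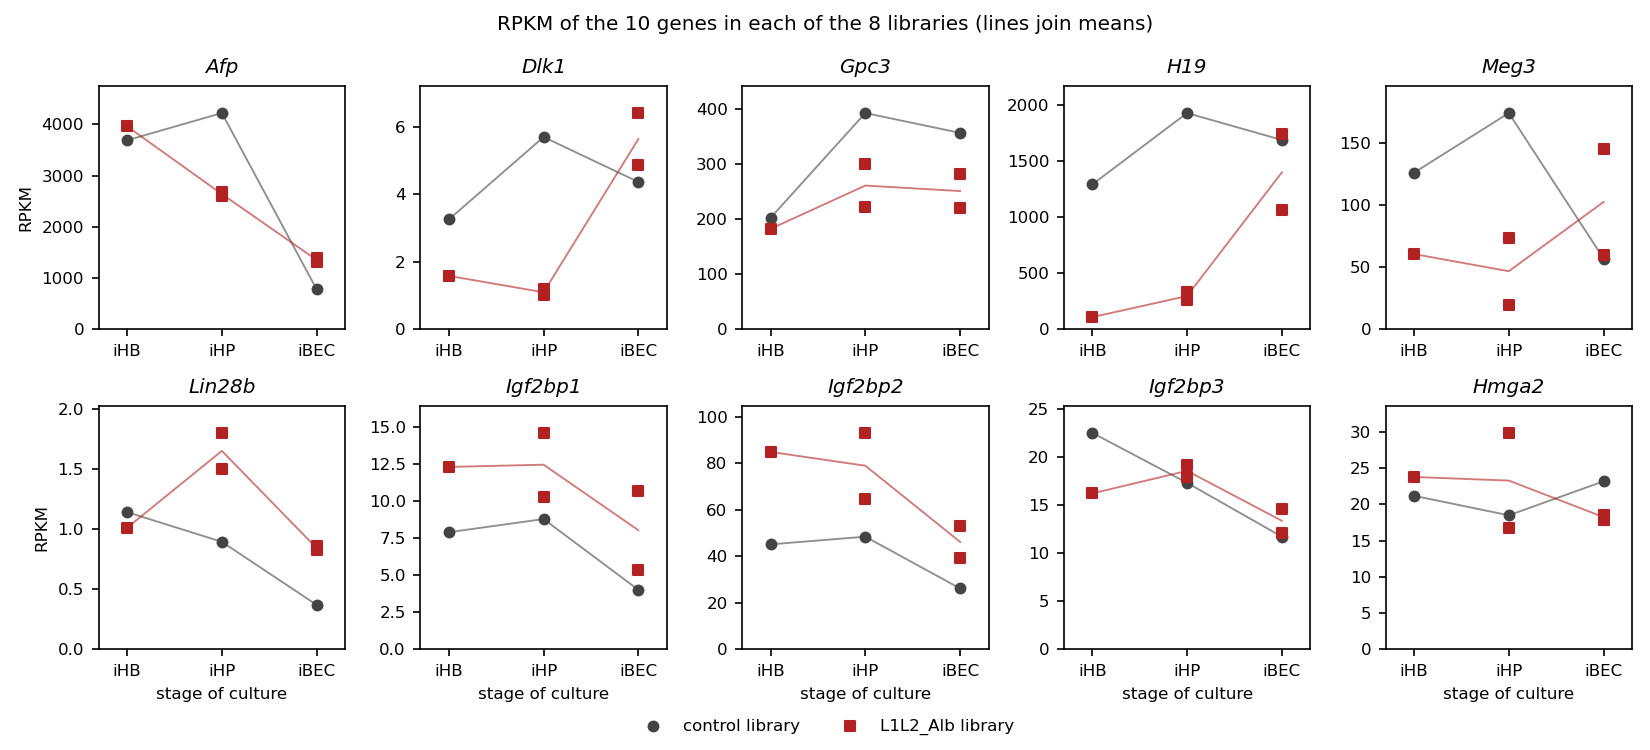
RPKM of each of the 10 genes (y axis, linear from 0) at the 3 stages of culture (x axis). Black circles are the 3 control libraries, red squares the 5 L1L2_Alb libraries, and lines join the mean of each genotype. Afp is lowest in the 3 iBEC libraries, and H19 is low in the L1L2_Alb iHB and iHP libraries but not in iBEC.

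Between the genotypes across the 3 stages, H19 fell and Igf2bp2 rose under the L1L2_Alb label, while 8 of the genes did not pass the test. Those are 2 of 10 genes, where 9.57% of the 13421 genes tested passed (832 higher and 452 lower, or 586 higher and 607 lower after upper-quartile scaling). A count of 2 among 10 is close to that background and is no result about the genes as a set. Between stages, Afp fell from iHB to iBEC, 1 of 10 genes where 5.72% of all genes passed (395 higher and 373 lower, or 490 and 184 after upper-quartile scaling). Within L1L2_Alb, Dlk1 and H19 rose from iHP to iBEC, 2 of 10 genes where 3.67% of all genes passed. Most of those calls were rises (424 higher and 68 lower), so the shared direction is no result about the 2. From iHB to iHP no gene of the table passed limma's test (0.0%), and 1158 genes had an unadjusted p under 0.05. A test of whether the genotype difference depended on the stage also called no gene, with 733 genes at an unadjusted p under 0.05. In 6 of the 10 genes every L1L2_Alb library lay above its control at 1 stage and below it at another, as did 36.4% of all genes tested, which is no result about the 10. With 2 residual degrees of freedom in that model and 4 in the model of genotype and stage, and with nothing in the labels on whether libraries came from separate cultures or embryos, the p-values measure only the spread between these libraries.

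**Figure D2:**
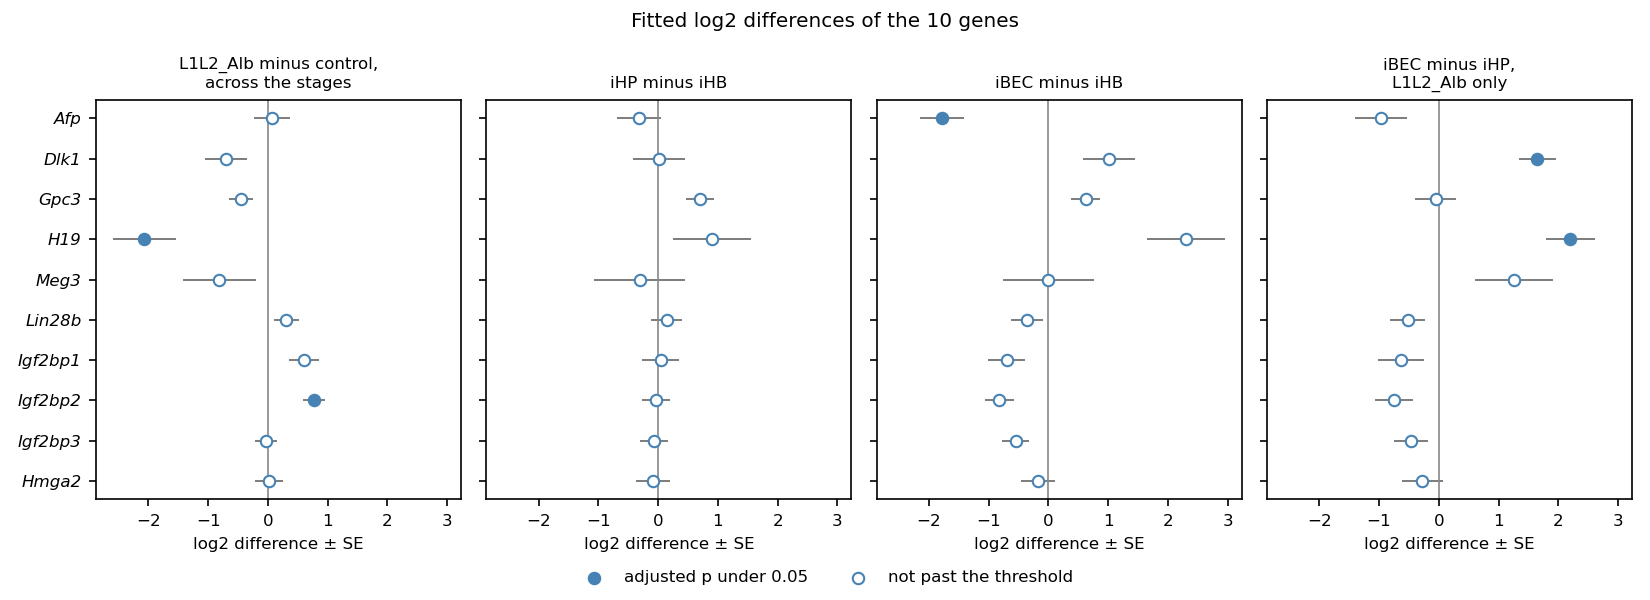
Fitted log2 differences of the 10 genes with their standard errors (x axis) for genotype, iHP against iHB, iBEC against iHB, and iBEC against iHP within L1L2_Alb. Filled points passed an adjusted p of 0.05: H19 and Igf2bp2 by genotype, Afp for iBEC against iHB, and Dlk1 and H19 within L1L2_Alb.

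Afp stayed among the most abundant RNAs of hepatoblasts of both genotypes and dropped in the biliary culture. It stood at 3687 RPKM in the control iHB library and 3959 RPKM in the L1L2_Alb iHB library. In iHP the control had 4219 RPKM and the 2 L1L2_Alb libraries 2673 and 2603 RPKM. In iBEC the control had 779 RPKM and the L1L2_Alb libraries 1313 and 1391 RPKM. The 3 iBEC libraries thus lay below the other 5, with no overlap, and the control was the lowest of them. In bulk RNA, fewer hepatoblasts in a culture and less Afp RNA per hepatoblast cannot be told apart. The fall from iHB to iBEC was 3.42-fold (limma, log2 difference of -1.78, SE 0.373, adjusted p = 0.0312). All genes together had a median of -0.25 in this contrast and of -0.02 after upper-quartile scaling, where Afp still fell, by 1.50 on the log2 scale (limma, adjusted p = 0.0468). The call was lost when either iHB library, the control iBEC library or either L1L2_Alb iBEC library was left out, with adjusted p between 0.0591 and 0.319. It was also lost with no filter on low values (limma, adjusted p = 0.111) and with the libraries of a condition averaged (adjusted p = 0.0528). Across stages the genotypes did not differ by limma's test (log2 difference of 0.07, SE 0.299, adjusted p = 0.914).

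Of the other 3 genes of the albumin family, Alb and Gc rose where Afp fell. Alb, encoding the main plasma protein of the adult liver, rose 5.17-fold from iHB to iBEC (limma, adjusted p = 0.0300) and Gc, the vitamin D binding protein, rose 7.18-fold (limma, adjusted p = 0.0228). Both also fell in the libraries labelled L1L2_Alb, Alb by 3.27-fold (limma, adjusted p = 0.0337) and Gc by 7.73-fold (limma, adjusted p = 0.00764), each lower in 5 of 5 libraries. Afm, encoding afamin, passed neither test (log2 difference of 0.36, limma, adjusted p = 0.574 for iBEC against iHB, and -1.12, adjusted p = 0.0569 by genotype). Alb stood at 2485 and 524 RPKM in control and L1L2_Alb iHB, where Afp differed 1.07-fold. In the iBEC libraries Alb therefore stood above Afp, 6162 against 779 RPKM in the control and 5499 and 3357 against 1313 and 1391 RPKM in the mutants, while in every iHB and iHP library Afp stood above Alb.

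Of 15 known regulators of Afp, H19 and Gpc3, 14 were tested. By genotype 4 fell and 1 rose. Nr5a2, a nuclear receptor that activates Afp, fell by 2.85-fold (limma, adjusted p = 0.00904), Hnf4a, the master regulator of hepatocytes, by 2.51-fold (limma, adjusted p = 0.00373), and the pioneer factor Foxa3 by 2.46-fold (limma, adjusted p = 0.0122). Foxa2 rose 2.26-fold (limma, adjusted p = 0.0351). From iHB to iBEC, as Afp fell, Foxa3 rose 2.63-fold and Hnf4a 2.00-fold (limma, adjusted p = 0.0273 for each). Zhx2, which represses Afp, H19 and Gpc3 after birth and was named after its values were seen, was expressed at 1.59 to 4.31 RPKM with no call.

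Gpc3, a glypican that anchors growth factors at the cell surface, was lower in each of the 5 libraries labelled L1L2_Alb than in the control of its stage, by small amounts. It stood at 202 and 182 RPKM in control and L1L2_Alb iHB, at 392 against 222 and 299 RPKM in iHP, and at 356 against 220 and 281 RPKM in iBEC. The genotypes overlapped because the control iHB library was low, and the difference did not pass limma's test (log2 difference of -0.45, SE 0.194, adjusted p = 0.187). Only quantile normalization gave a call (log2 difference of -0.62, adjusted p = 0.0387). Of the 5 glypicans tested, Gpc4 fell by 2.32-fold by genotype (limma, adjusted p = 0.0351). The fitted genotype difference was negative for 4 of the 5, with a median of -0.36, beside 0.06 over all genes.

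Dlk1, a Notch-like surface protein used to sort hepatoblasts, was a low transcript in these cultures. It stood at 3.25 and 1.58 RPKM in control and L1L2_Alb iHB. In iHP it was 5.69 RPKM in the control and 0.999 and 1.19 RPKM in L1L2_Alb. In iBEC it was 4.36 RPKM in the control and 6.40 and 4.86 RPKM in L1L2_Alb. The L1L2_Alb iHP libraries were the lowest 2 of the 8, and the L1L2_Alb iBEC libraries held the highest value. Within L1L2_Alb, Dlk1 rose from iHP to iBEC by 3.14-fold in RPKM + 1 (limma, log2 difference of 1.65, SE 0.307, adjusted p = 0.0381). Adding 1 understates folds of such low genes. With a pseudocount of 0.1 the log2 difference was 2.25 (limma, adjusted p = 0.0421). The rise was not called when any 1 of those 4 libraries was left out (log2 differences of 1.48 to 1.82). It was also not called with quantile normalization (adjusted p = 0.0745) or no filter (adjusted p = 0.176). By genotype the log2 difference was -0.70 (SE 0.350, limma, adjusted p = 0.256), and it moved to -1.27 without the control iBEC library (adjusted p = 0.0310) and to -0.14 without the control iHP library (adjusted p = 0.946).

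H19 had the largest fitted genotype difference of the 10 genes, and its values were furthest apart in iHB and iHP, although a dependence on stage did not pass the test. In iHB it was 1290 RPKM in the control library and 108 RPKM in the L1L2_Alb library. In iHP it was 1926 RPKM in the control and 262 and 330 RPKM in L1L2_Alb. In iBEC it was 1686 RPKM in the control and 1059 and 1735 RPKM in L1L2_Alb. The 3 L1L2_Alb libraries of iHB and iHP lay below every other library, whereas in iBEC the genotypes overlapped. Against its control, the L1L2_Alb iHB library was 11.8-fold lower and the mean of the iHP libraries 6.52-fold lower (SD of the log2 difference 0.234, n = 2). In iBEC the mean was 1.24-fold lower (SD 0.503, n = 2). Genes at least 2-fold apart in every L1L2_Alb library of a stage made up 14.6% of genes in iHB, 12.9% in iHP and 5.8% in iBEC. H19 and Meg3 were among them in iHB, H19, Dlk1 and Meg3 in iHP, and no member in iBEC.

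Across the stages H19 fell by 4.20-fold (limma, log2 difference of -2.07, SE 0.526, adjusted p = 0.0459), lower in 4 of 5 libraries. That call was lost on leaving out either iHB library, any iHP library or L1L2_Alb iBEC 1 (adjusted p between 0.0591 and 0.285), with no filter (adjusted p = 0.116) and with averaged conditions (adjusted p = 0.0916), and the log2 difference was -3.07 without the control iBEC library. Within L1L2_Alb, H19 rose 4.59-fold from iHP to iBEC (limma, log2 difference of 2.20, SE 0.410, adjusted p = 0.0382), a call that was lost when any 1 of those 4 libraries was left out (adjusted p between 0.0913 and 0.317) or no filter was applied (adjusted p = 0.189). The dependence of the genotype difference on stage had an unadjusted p of 0.00781 for H19 in limma and an adjusted p of 0.541.

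**Figure D3:**
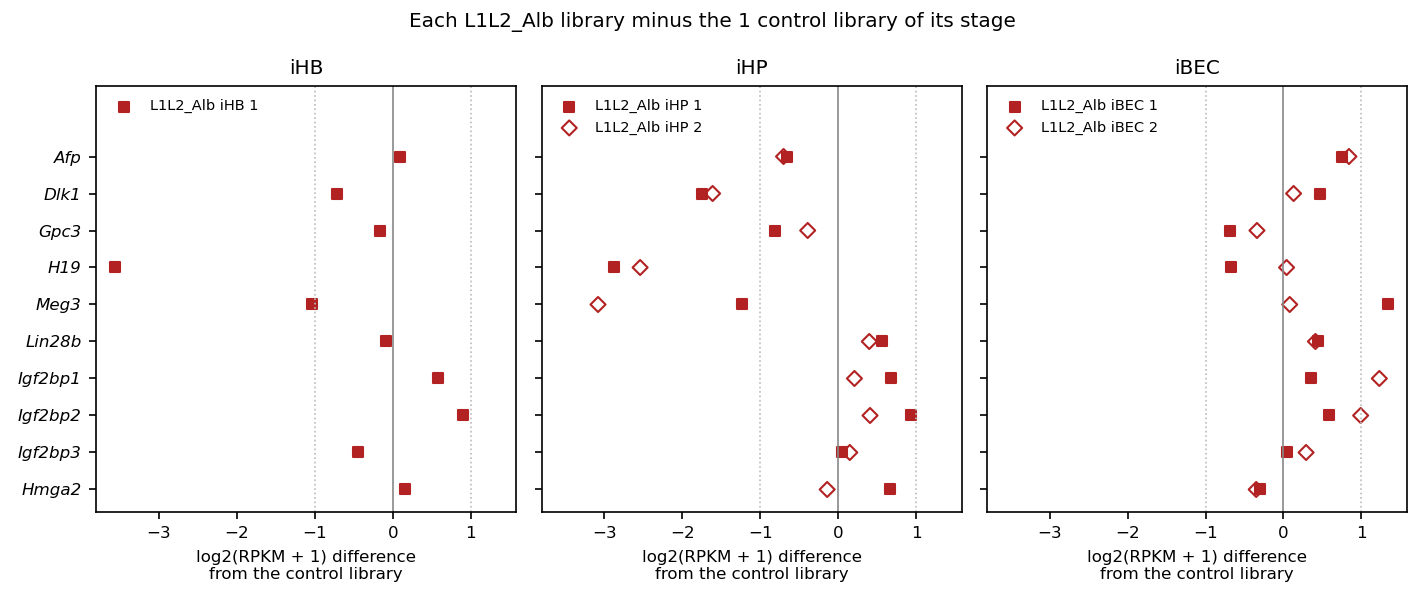
Differences in log2(RPKM + 1) between each L1L2_Alb library and the 1 control library of its stage (x axis) for the 10 genes, by stage. Dotted lines mark a 2-fold difference. H19 lies at -3.56 in iHB, at -2.87 and -2.54 in iHP, and at -0.67 and 0.04 in iBEC.

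The transcripts beside H19 followed it. Mir675, whose hairpin lies in H19 and takes reads from it, stood at 2607 and 246 RPKM in control and L1L2_Alb iHB. The correlation of Mir675 and H19 over the 8 libraries was 0.999. Igf2, the fetal growth factor that shares its enhancers with H19 and was named after its values were seen, stood at 200 against 37.4 RPKM in iHB. In iHP it was 244 against 41.4 and 103 RPKM, and in iBEC 236 against 203 and 301 RPKM. Igf2 was thus also low in the L1L2_Alb libraries of iHB and iHP and overlapped in iBEC, but did not pass (log2 difference of -1.31, SE 0.472, limma, adjusted p = 0.121). After Mir675, the genes most like H19 were Fabp1, a fatty acid binding protein of hepatocytes (r = 0.982), and Hsd17b13, a lipid droplet enzyme (r = 0.981). These are correlations over 8 libraries that share stages and genotypes.

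Cell type markers moved beside H19. The summed level of 10 mature hepatocyte markers was 232 and 7.52 RPKM in control and L1L2_Alb iHB, 665 against 54.8 and 32.9 RPKM in iHP, and 489 against 505 and 321 RPKM in iBEC. Of the 7 tested, 3 fell by genotype. Of the 8 hepatocyte markers, 7 fell by genotype, with a median log2 difference of -1.88. The exception, Apoa1, stood at 2451 and 8670 RPKM in control and L1L2_Alb iHB. In iBEC the mean difference was negative for all 8. The sum of 14 mesenchymal and stellate markers was 4871 and 1675 RPKM in control and L1L2_Alb iHB, 2969 against 748 and 1210 RPKM in iHP, and 2698 against 3820 and 1722 RPKM in iBEC. It was thus low in the L1L2_Alb libraries of iHB and iHP and overlapped in iBEC, as H19 was. The fitted genotype difference was negative for all 12 tested with none called, but in iBEC the mean difference was positive for 7 of the 12. The sum of 5 mesothelial markers was 111 to 272 RPKM in controls and 1064 to 3613 RPKM in L1L2_Alb, with no overlap. It was mostly Msln, at 103 to 261 RPKM in controls and 1032 to 3536 RPKM in L1L2_Alb. By genotype 2 of the 4 tested rose, led by Msln (12.2-fold, limma, adjusted p = 0.000930). In iHP 3 of the 4 had a positive mean difference, while Upk3b stood at 2.97 RPKM in the control and 1.65 and 0.691 RPKM in L1L2_Alb. The sum of 8 erythroid markers was 6.15 to 253 RPKM in controls and 3.39 to 48.1 RPKM in L1L2_Alb, and 2 of the 4 tested fell by genotype. Sums of leukocyte markers overlapped, at 1176 to 2277 RPKM in controls and 598 to 2626 RPKM in L1L2_Alb, with none of the 7 tested called by genotype, and endothelial markers summed to at most 24.1 RPKM. No marker list was at 0 in any library, and the part of these cell types in the differences of H19, Dlk1 or Meg3 was not tested.

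**Figure D4:**
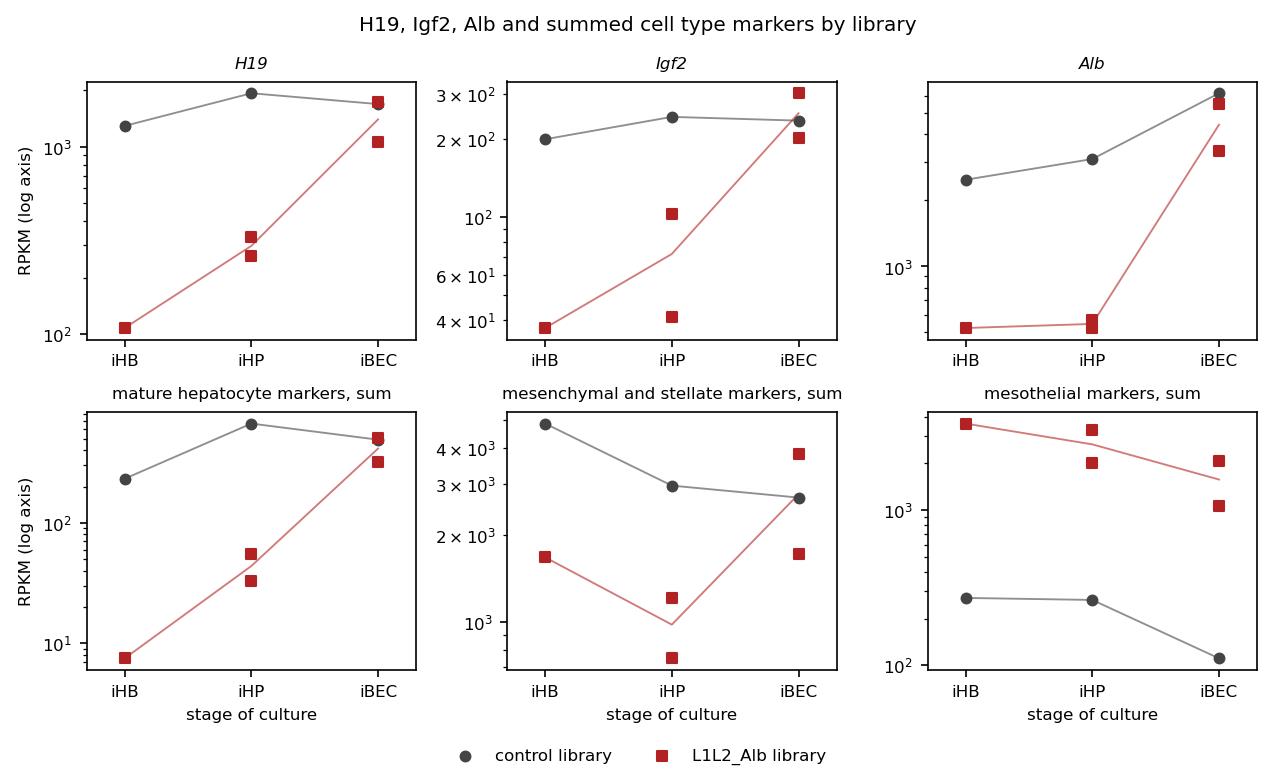
RPKM of H19, Igf2 and Alb and summed RPKM of 3 marker lists (y axes, logarithmic) at the 3 stages (x axis). Black circles are control and red squares L1L2_Alb libraries, and lines join means. H19, Igf2, Alb and the mature hepatocyte sum are low in L1L2_Alb iHB and iHP and near the control in iBEC. The mesothelial sum, mostly Msln, is higher in L1L2_Alb at every stage.

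Meg3 varied most of the 10 genes between libraries of 1 condition. It stood at 126 and 60.5 RPKM in control and L1L2_Alb iHB. In iHP it was 174 RPKM in the control and 73.7 and 19.7 RPKM in L1L2_Alb, and in iBEC 56.9 RPKM in the control and 145 and 59.9 RPKM in L1L2_Alb. The 2 L1L2_Alb libraries differed more than 2-fold from each other in both iHP and iBEC, and both L1L2_Alb iBEC libraries stood above their control. The genotype difference did not pass (log2 difference of -0.81, SE 0.607, limma, adjusted p = 0.452) and was -0.04 without the control iHP library. The imprinted region holds many other RNAs. Of 73 RefSeq entries from Dlk1 to Dio3, 30 were tested, and all 30 had a negative fitted genotype difference, with a median of -0.66 and none called. In iHP all 30 had a negative mean difference from the control, and in iHB 27 had a negative difference. In iBEC the mean difference was positive for 17 and negative for 13, with a median of 0.13. Single libraries could go the other way, as Mir410 stood at 5.73 RPKM in control iHP and 7.37 RPKM in L1L2_Alb iHP 1. These include microRNA hairpins and small RNAs inside Meg3, Rian and Mirg, so they share reads and are not separate measurements. Mir1906-1 and Mir770, both inside Meg3, had correlations of 0.996 and 0.986 with it over the 8 libraries, and Mir1906-2 had the same values as Mir1906-1. Dio3, at the far end of the region, rose from iHP to iBEC within L1L2_Alb (limma, adjusted p = 0.0386), from 0.232 and 0.327 RPKM to 2.75 and 2.69 RPKM. Mir136 was listed at 0 in both L1L2_Alb iHP libraries and at 3.12 and 2.71 RPKM in iBEC, too low over a short hairpin to give a fold. Dcn, a collagen-binding proteoglycan of fibroblasts that is also on the list of imprinted genes, rose in the same contrast (limma, log2 difference of 4.70, SE 0.665, adjusted p = 0.0174).

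Imprinted genes as a group did not share 1 direction. Of 22 tested, 2 fell by genotype, H19 and the zinc finger gene Zim1 (3.09-fold, limma, adjusted p = 0.0480). Peg10, a retrotransposon-derived gene of placenta and fetal liver, rose 2.18-fold (limma, adjusted p = 0.0281). The list's median across the stages was -0.24. By stage, without a test, 16 of the 22 had a negative difference in iHB (median -0.64) and 14 a negative mean difference in iHP (median -0.65). In iBEC 18 had a positive mean difference (median 0.48). All genes had medians of -0.086 in iHB, -0.007 in iHP and 0.247 in iBEC. Between iHB and iBEC 3 fell, with Peg10 now lower. Cdkn1c, an inhibitor of the cell cycle, fell by 8.46-fold (limma, adjusted p = 0.00343) and Peg10 by 4.73-fold (limma, adjusted p = 0.00549). The growth regulator Plagl1 fell by 3.97-fold (limma, adjusted p = 0.00509). None of them is H19, Meg3 or Dlk1. These folds are of RPKM + 1 and understate the fall of Peg10. In controls Peg10 stood at 5.40 RPKM in iHB and 0.691 RPKM in iBEC. In L1L2_Alb it stood at 21.2 RPKM in iHB and at 2.91 and 2.58 RPKM in iBEC.

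Lin28b was the least abundant of the 10 genes and passed the test in no contrast. It stood at 1.14 and 1.01 RPKM in control and L1L2_Alb iHB, at 0.893 against 1.80 and 1.50 RPKM in iHP, and at 0.368 against 0.858 and 0.823 RPKM in iBEC. The 3 iBEC libraries lay lowest, and the L1L2_Alb iHP libraries highest. The log2(RPKM + 1) scale understates such low genes, and the genotype difference on it was 0.31 (SE 0.214, limma, adjusted p = 0.417). Its targets were only seen as entries for their hairpins, which can take reads from longer transcripts. Of 12 let-7 hairpin entries, 6 reached a mean of 1 RPKM, and the sum of the 12 stood at 29.7 to 108 RPKM in controls and at 33.5 to 70.0 RPKM in L1L2_Alb. Mir98 and Mirlet7f-2 ran in near-constant proportion, at 24.7 and 32.2 RPKM in control iHB and at 8.92 and 11.6 RPKM in control iBEC. The sum may therefore count the same reads more than once. A kit that reads long RNA does not measure the mature let-7 shown above.

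Igf2bp2, which encodes a protein that binds and stabilises Igf2 and other mRNAs, was higher in each of the 5 libraries labelled L1L2_Alb than in the control of its stage. It stood at 45.1 and 84.9 RPKM in control and L1L2_Alb iHB. In iHP it was 48.4 RPKM against 93.1 and 64.8 RPKM, and in iBEC 26.1 RPKM against 39.4 and 52.9 RPKM. The ranges of the genotypes overlapped across stages but not within one. Igf2bp2 rose 1.71-fold by genotype (limma, log2 difference of 0.77, SE 0.190, adjusted p = 0.0402), and this call was lost on upper-quartile scaling (0.69, adjusted p = 0.0563) and quantile normalization (0.57, adjusted p = 0.103), with no filter (adjusted p = 0.0662) and without the trend (adjusted p = 0.0533). It was also lost without either iHB library, the control iHP or iBEC library, L1L2_Alb iHP 1 or L1L2_Alb iBEC 2 (adjusted p between 0.0742 and 0.196).

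Neither of its paralogs passed the test. Igf2bp1 stood at 7.89 and 12.3 RPKM in control and L1L2_Alb iHB, at 8.78 against 14.6 and 10.3 RPKM in iHP, and at 4.00 against 5.35 and 10.7 RPKM in iBEC. It too was above its control in 5 of 5 libraries but did not pass (log2 difference of 0.61, SE 0.249, limma, adjusted p = 0.167). Igf2bp3 stood at 22.5 and 16.2 RPKM in iHB, at 17.3 against 17.9 and 19.2 RPKM in iHP, and at 11.7 against 12.1 and 14.6 RPKM in iBEC. Here the genotypes overlapped, with a log2 difference of -0.03 (SE 0.184, limma, adjusted p = 0.947). From iHB to iBEC the log2 differences of Igf2bp1, Igf2bp2 and Igf2bp3 were -0.70, -0.82 and -0.55, and -0.46, -0.56 and -0.29 after upper-quartile scaling, none past the threshold. Whether the 3 paralogs differed from each other by genotype was not tested.

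Hmga2, an architectural chromatin protein of embryonic cells and a classic let-7 target, had the narrowest range of the 10 from lowest to highest library. It stood at 21.2 and 23.8 RPKM in control and L1L2_Alb iHB, at 18.5 against 29.9 and 16.7 RPKM in iHP, and at 23.2 against 18.6 and 17.9 RPKM in iBEC. The genotypes and the stages all overlapped, and the 2 L1L2_Alb iHP libraries held its highest and lowest values. The genotype difference was 0.02 (SE 0.228, limma, adjusted p = 0.971) and that of iBEC against iHB -0.18 (SE 0.285, limma, adjusted p = 0.717), and both turned sign with upper-quartile scaling.

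In the wider LIN28 and let-7 list, 26 of 27 genes were tested, and by genotype 1 passed, Igf2bp2 itself. The median difference was 0.16, with 18 above 0 and 8 below. Between iHB and iBEC 5 fell and none rose, with a median of -0.55 beside -0.25 over all genes. Thbs1, which encodes the matrix protein thrombospondin, fell by 6.64-fold (limma, adjusted p = 0.00549), Igf1r, the receptor of insulin-like growth factors, by 3.61-fold (limma, adjusted p = 0.00831) and the transcription factor Arid3a by 3.20-fold (limma, adjusted p = 0.0470).

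Other genes of hepatoblasts and fetal liver were divided by genotype. Of 14 tested, 3 fell, among them the hepatoblast transcription factors Prox1 (2.68-fold, limma, adjusted p = 0.0147) and Hhex (2.04-fold, limma, adjusted p = 0.0176). The plasma protein gene Ahsg fell by 6.03-fold (limma, adjusted p = 0.00415). Tspan8, a tetraspanin, rose 5.68-fold (limma, adjusted p = 0.00418) and Peg10 rose as given above. Toward iBEC, Ahsg rose (log2 difference of 3.59, limma, adjusted p = 0.00278), Tspan8 fell by 4.04-fold (limma, adjusted p = 0.0242) and Peg10 fell.

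The genes whose levels ran closest to the remaining members were not fetal genes of the lists. Over the 8 libraries Afp was most like Mrpl9, a mitochondrial ribosomal protein (r = 0.980), and Dlk1 was most like the acyl-CoA hydrolase Acot12 (r = 0.981) and Rgn, a calcium-binding protein of hepatocytes (r = 0.975). Gpc3 was most like A630012P03Rik (r = 0.982) and Mir717 inside Gpc3 (r = 0.974). Lin28b was most like Ankle2 (r = 0.988), Igf2bp1 most like Eef1e1 (r = 0.977) and Igf2bp3 most like the genome stability gene Rmi1 (r = 0.985). Hmga2 had the weakest best match, the zinc transporter Slc30a1 (r = 0.927). Each was picked as the highest correlation over the genes tested, in libraries that share stages, and describes these libraries only.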

How the data were processed

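RNA was sequenced by the authors in 8 libraries made with a TruSeq RNA v2 kit, which does not mark strand, so overlapping and antisense genes cannot be told apart. The submitters' processing notes list Bowtie 0.12.2 and genome build mm8. The counting method and annotation are not given in the sources used here. The authors deposited 1 RPKM value per gene and library, a unit inferred from the values: short RNA genes change in whole steps that also give the depth. Members and gene lists were chosen with earlier results of these data known. 4 entries with repeated symbols were left out.

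RPKM values were tested as log2(RPKM + 1) with limma 3.58.1 in R 4.3.3 (eBayes with trend, two-sided) over the 13421 genes whose mean reached 1 RPKM, with Benjamini-Hochberg adjustment and a threshold of 0.05. A model of stage and genotype gave the genotype and stage contrasts. A model of the 6 conditions gave the contrast within L1L2_Alb and the dependence of genotype on stage. Single-stage differences have 1 control library and no test. Folds between genotypes and between stages are of RPKM + 1, so they understate changes of genes with low RPKM. The fit was tested on simulated data with known changes and independent noise in each library. That simulation does not bear on libraries that share cultures or embryos, nor on the calls given here. All 10 members are named, with up to 3 genes per list and direction past the threshold and up to 3 genes most correlated with each member; some genes that this rule picks are not reported here. No sample dates or batches are in the labels. Alternatives were a pseudocount of 0.1, upper-quartile scaling, quantile normalization, no filter, a mean of at least 5 RPKM, no trend, averaged conditions, leaving out each library, and a replicate block.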

Additional observations from a re-analysis of the deposited data

Results flagged for a closer look

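In 6 of the genes every L1L2_Alb library of 1 stage lay on the opposite side of its control from every L1L2_Alb library of another stage. Of all 13421 genes tested 36.4% did so, and with so few libraries the count of 6 among 10 is no result about these genes. Each stage has 1 control library, so these directions share its error. The dependence on stage was tested with limma, and no gene passed after adjustment.

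For Afp the mean log2 difference from the control was 0.10 in iHB and 0.79 in iBEC but -0.68 in iHP (adjusted p of the dependence 1.0). For Dlk1 it was 0.30 in iBEC but -0.72 in iHB and -1.67 in iHP (adjusted p of the dependence 0.716). For Meg3 it was 0.71 in iBEC but -1.04 in iHB and -2.16 in iHP (adjusted p of the dependence 1.0). Dlk1 and Meg3 are neighbours in 1 imprinted region and are not independent cases.

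Differences of the other 3 genes were small. Lin28b had 0.48 in iHP and 0.43 in iBEC but -0.09 in iHB. Igf2bp3 had 0.10 in iHP and 0.17 in iBEC but -0.45 in iHB. Hmga2 had 0.16 in iHB but -0.33 in iBEC.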

How the results depend on the processing

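Of 594 values of the 10 genes under alternatives, 506 kept direction and call, 36 lost a call, 7 gained one and 45 turned sign. Sign turned only in contrasts without a call, and H19, Igf2bp2, Afp and Dlk1 kept their direction in each contrast where they were called, under every alternative run. Calls of other named genes were lost in 129 of 388 values, and none turned.

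Genes called by genotype were 686 with no filter and 205 to 1702 on leaving out 1 library. Genes called from iHB to iHP were 3 with upper-quartile scaling, 4 with a mean of at least 5 RPKM, and 0 to 55 on leaving out 1 library. From iHB to iBEC they were 492 with no filter and 99 to 1747 on leaving out 1 library. Within L1L2_Alb, iBEC against iHP, they were 0 with no filter and 0 to 492 on leaving out 1 library. Genes at least 2-fold apart in a single remaining L1L2_Alb library were 2371 to 3509 in iHP and 1308 to 1541 in iBEC. Lone libraries were assumed to vary like the others.

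The 2 L1L2_Alb libraries of iHP and iBEC carry the numbers 1 and 2, which the labels do not tie to embryos. The deviations of same-numbered libraries had a correlation of -0.022 over genes, so they were not treated as pairs. A replicate block on those 4 libraries called 911 genes and added Meg3 (1.26, limma, adjusted p = 0.0364).

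Log2 differences that turned sign are given with their values. With upper-quartile scaling, genotype gave -0.01 for Afp and -0.06 for Hmga2, iHP against iHB gave 0.14 for Igf2bp2, 0.10 for Igf2bp3 and 0.07 for Hmga2, and iBEC against iHB gave 0.27 for Meg3 and 0.08 for Hmga2. With quantile normalization, genotype gave -0.08 for Hmga2, iHP against iHB gave 0.07 for Igf2bp2, 0.09 for Igf2bp3 and 0.08 for Hmga2, iBEC against iHB gave 0.25 for Meg3 and 0.10 for Hmga2, and Gpc3 within L1L2_Alb gave 0.09. From iHB to iHP, Dlk1 was -0.07 with a pseudocount of 0.1 and Meg3 0.05 with averaged conditions.

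Leaving out 1 library, genotype ranged from -0.34 to 0.50 for Afp, -0.14 to 0.13 for Igf2bp3 and -0.13 to 0.22 for Hmga2. From iHB to iHP it ranged from -0.59 to 0.21 for Dlk1, -0.22 to 1.83 for H19, -1.15 to 0.37 for Meg3, -0.16 to 0.39 for Lin28b, -0.06 to 0.19 for Igf2bp1, -0.14 to 0.12 for Igf2bp2, -0.39 to 0.20 for Igf2bp3 and -0.33 to 0.07 for Hmga2. From iHB to iBEC Meg3 ranged from -0.57 to 0.94. Within L1L2_Alb, Gpc3 ranged from -0.27 to 0.16 and Hmga2 from -0.68 to 0.12. The causes were not tested.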
